A study of Mus musculus with 12 samples.

Results

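The Peg10-Sgce domain is an imprinted stretch of mouse proximal chromosome 6, and 6 of its genes are described here: Peg10, Sgce, Casd1, Calcr, Ppp1r9a and Asb4. They were chosen by name, and all 6 were found among the 26742 genes of the count table. RNA had been sequenced from mouse embryonic stem (ES) cells labelled male, grown in serum with leukaemia inhibitory factor (LIF), in 4 groups of 3 libraries. The groups were 129 cells and B6J cells given 1 µM of the MEK inhibitor PD 0325901 daily from day 0 to day 5, and 129 cells and B6J cells given the solvent DMSO over the same days. Each background is given as 1 genotype without a clone name, and its effect therefore cannot be told apart from that of the line used. Whether replicate libraries stem from different cultures is not stated, and p-values accordingly measure only how far these libraries spread, possibly for technical reasons.

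Imprinted genes are transcribed mainly from the allele of a single parent, and DNA methylation laid down in the egg or sperm at a control region marks which one. In this domain the control region lies at the shared, divergent start of Peg10 and Sgce, is methylated on the maternal copy, and leaves both genes expressed from the paternal copy. Several genes further out are expressed mainly from the maternal copy, in some tissues only, among them Asb4, Ppp1r9a in the placenta, and Calcr in the brain. Peg10 is required for formation of the mouse placenta. MEK phosphorylates and so switches on ERK, and blocking it is known to lower DNA methylation in ES cells. The counts hold neither alleles nor methylation, so what follows is total RNA per gene. In such bulk samples, fewer cells of a type and less RNA per cell cannot be told apart.

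The inhibitor was accompanied by less Peg10 RNA in both backgrounds, by a factor of 4.01 in 129 cells and 6.42 in B6J cells. Sgce, whose annotated start lies 99 bp from that of Peg10 on the other strand, passed the test in neither background. Calcr fell in both, and Ppp1r9a and Asb4 passed the test in 129 cells. Casd1 passed in neither. In 129 cells 4 of the 6 genes were called lower and 0 higher, with 18.2% of all 16627 tested genes called lower and 17.4% higher. In B6J cells 2 of the 6 were called lower and 0 higher, with 16.5% of all tested genes called lower and 14.6% higher. A call here is a Benjamini-Hochberg adjusted p under 0.05 over all tested genes in edgeR's quasi-likelihood test. The median log2 fold change of the 6 genes was -0.91 in 129 cells and -0.61 in B6J cells, beside -0.01 and 0.00 over all tested genes.

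Library totals were 65564142 to 82701438 counts in 129 cells with the inhibitor, 62634533 to 73031809 in 129 cells with DMSO, 81310810 to 96341637 in B6J cells with the inhibitor and 74164171 to 82505523 in B6J cells with DMSO. The 8 ES cell markers (Pou5f1, Sox2, Nanog, Zfp42, Esrrb, Dppa5a, Tdgf1 and Utf1) were detected in every library. Their summed level was 4656 to 4786 CPM (counts scaled to an equal library size) in 129 and 4496 to 4734 CPM in B6J cells with the inhibitor, against 2745 to 3952 CPM in 129 and 3576 to 4452 CPM in B6J cells with DMSO. The 20 fibroblast markers, which feeder cells would carry, were also detected in every library. Their summed level was 10075 to 15676 CPM in 129 and 9588 to 14800 CPM in B6J cells with the inhibitor, against 4574 to 9724 CPM in 129 and 6012 to 7239 CPM in B6J cells with DMSO. In each group 1 library stood apart from the other 2 by a chi-square comparison of counts: replicate 1 of 129 with the inhibitor, of 129 with DMSO and of B6J with DMSO, and replicate 3 of B6J with the inhibitor. The last was less clear. In B6J with the inhibitor, chi-square per degree of freedom was 42.1 and 120 from replicate 3 to replicates 2 and 1, beside 26.3 between those. In 129 with DMSO it was 174.5 and 166 from replicate 1 to replicates 2 and 3, beside 7.50.

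**Figure D1:**
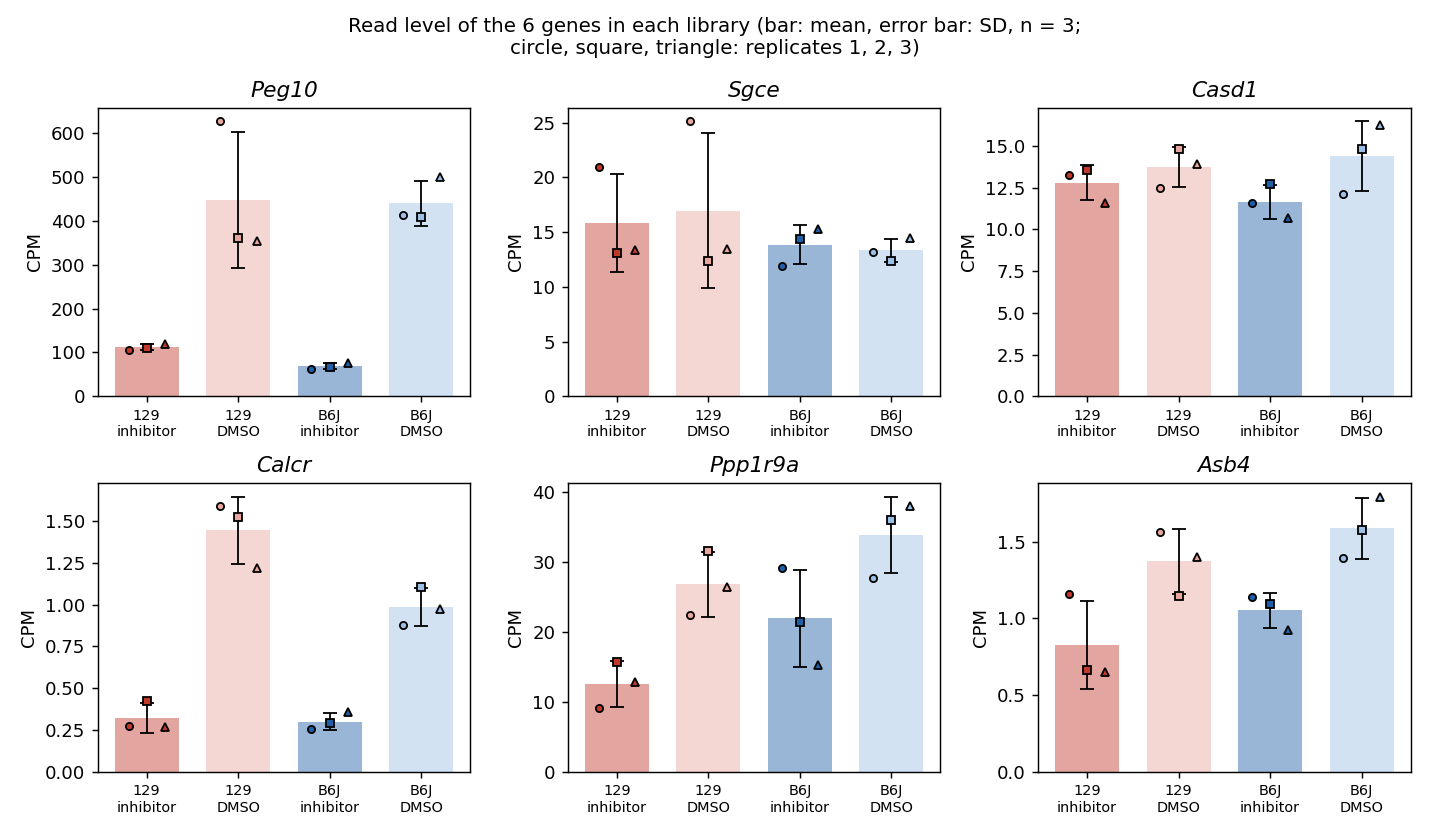
Level of each of the 6 genes in CPM, 1 panel a gene, with the inhibitor left of DMSO within each background; bars give the mean, error bars the SD (n = 3), and symbols the single libraries. Peg10 and Calcr separate the treatments in both backgrounds, whereas the Sgce libraries of the 4 groups overlap.

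Peg10, a gene derived from a sushi-ichi retrotransposon, lies at chr6:4747306-4760517 on the plus strand (GRCm38; ENSMUSG00000092035). It had 105, 111 and 118 CPM in the 129 libraries with the inhibitor, against 627, 361 and 354 CPM in the 129 libraries with DMSO. It had 62.5, 67.8 and 75.7 CPM in the B6J libraries with the inhibitor, against 414, 408 and 500 CPM in the B6J libraries with DMSO. All 6 inhibitor libraries lay below all 6 DMSO libraries, and the B6J inhibitor libraries lay below the 129 inhibitor libraries. In raw numbers that is 7367 to 9781 reads in 129 and 4937 to 7203 reads in B6J libraries with the inhibitor, and 22681 to 45678 and 32869 to 37044 reads in 129 and B6J libraries with DMSO. Its log2 fold change was -2.0 in 129 cells (SE 0.19, adjusted p = 1.89e-05) and -2.68 in B6J cells (SE 0.20, adjusted p = 3.58e-06).

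Per kilobase of exon, Peg10 averaged 16.7 CPM per kb in 129 and 10.3 CPM per kb in B6J cells with the inhibitor, against 67.1 and 66.1 CPM per kb in 129 and B6J cells with DMSO. On that scale it stood at percentiles 80.7 and 72.0 of all tested genes in 129 and B6J cells with the inhibitor, and at percentiles 96.0 and 95.7 in 129 and B6J cells with DMSO. It was the most abundant of the 6 genes per length in every group. Over the 23 alternative settings its log2 fold change ran from -2.55 to -1.63 in 129 cells and from -3.17 to -2.58 in B6J cells, called lower in each. With the mean of the fibroblast markers as a covariate the values were -2.55 in 129 cells and -3.17 in B6J cells.

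**Figure D2:**
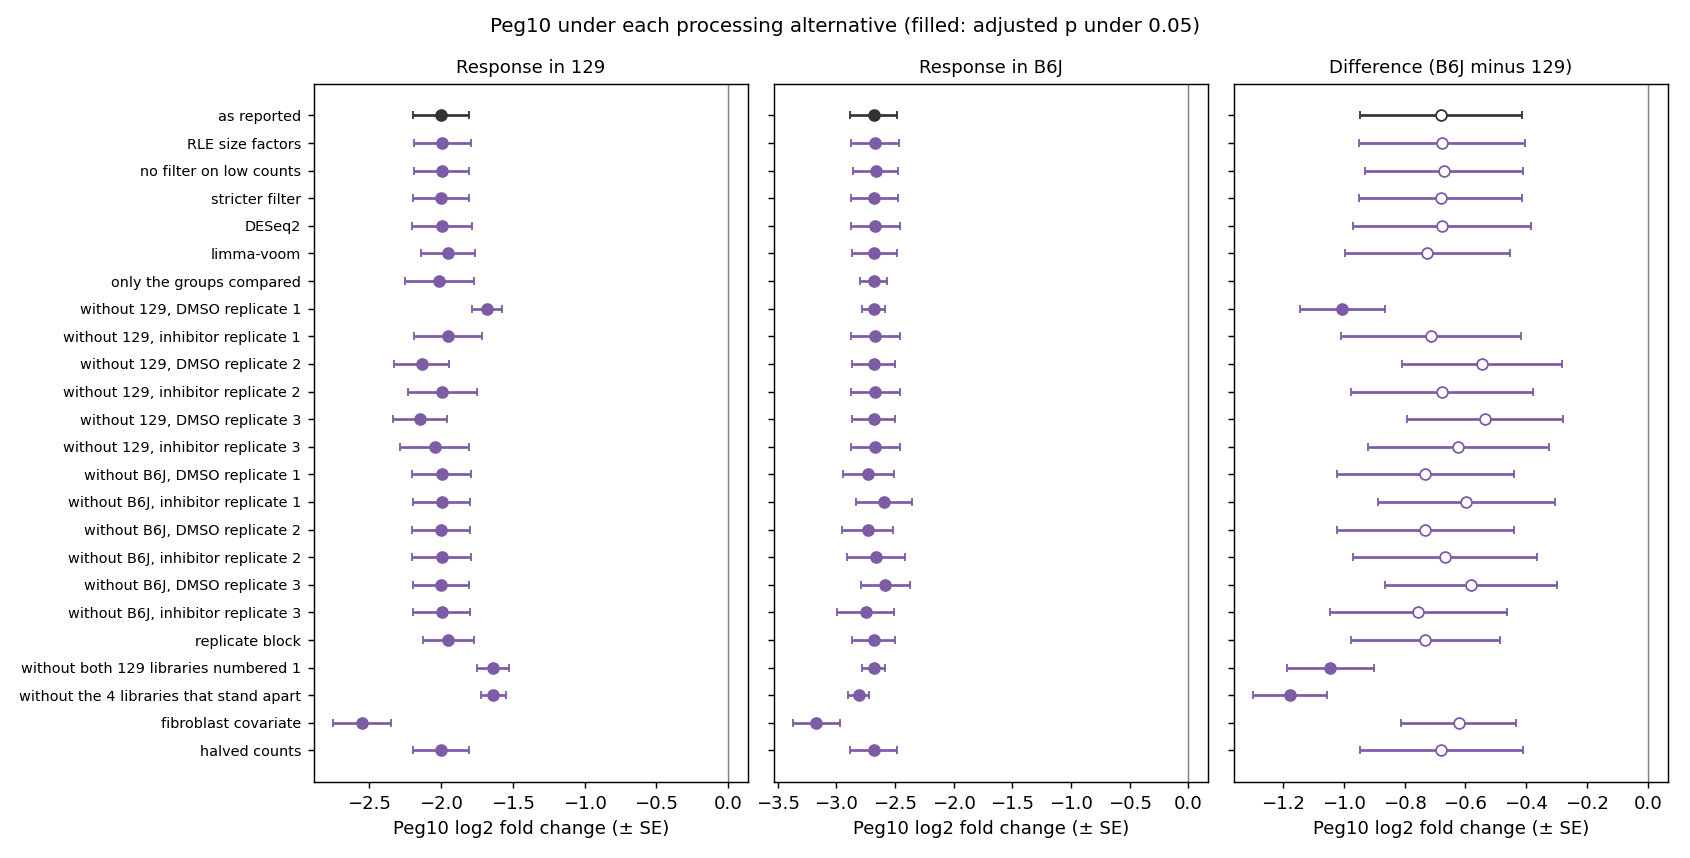
Log2 fold change of Peg10 (± SE) as reported and under each alternative setting, for the response in 129 cells, the response in B6J cells and their difference, B6J minus 129; filled points have an adjusted p under 0.05, and the panels have different horizontal scales. Both responses are called throughout, and the difference runs from -1.18 to -0.54.

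The responses of Peg10 in B6J and 129 cells differed by -0.68 on the log2 scale (SE 0.27, 95% interval -1.26 to -0.10), which did not pass after adjustment (adjusted p = 0.292). Over all genes 1.48% were called in that comparison, and 0 of the 6 genes were, with 1 at an unadjusted p under 0.05. Leaving out replicate 1 of 129 with DMSO, the highest Peg10 library, moved the difference to -1.0 with an adjusted p of 0.00372; calls over all genes rose in that setting as well, to 586 against 246. That library also held the highest summed level of primitive endoderm markers, 564 CPM against 47.9 and 48.9 CPM in the other 129 libraries with DMSO, and its part in the result was not tested. Without it the response of Peg10 in 129 cells was -1.68 (adjusted p = 7.77e-07).

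Sgce encodes epsilon-sarcoglycan, a membrane protein of the sarcoglycan family, and lies at chr6:4674350-4747207 on the minus strand (ENSMUSG00000004631). It had 20.95, 13.1 and 13.4 CPM in the 129 libraries with the inhibitor, against 25.1, 12.3 and 13.4 CPM in the 129 libraries with DMSO. It had 11.9, 14.4 and 15.3 CPM in the B6J libraries with the inhibitor, against 13.2, 12.3 and 14.5 CPM in the B6J libraries with DMSO. The groups overlapped, and the 2 highest libraries were replicate 1 of 129 with the inhibitor and of 129 with DMSO. The log2 fold change was -0.10 in 129 cells (95% interval -0.67 to 0.47, adjusted p = 0.787) and 0.06 in B6J cells (95% interval -0.51 to 0.62, adjusted p = 0.896).

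The same libraries that were high in Sgce within the 129 groups were high in fibroblast markers. The mean log2 CPM of that list was 7.56 in replicate 1 and 6.95 and 6.99 in the other 129 libraries with the inhibitor, against 6.66 in replicate 1 and 5.70 and 5.63 in the other 129 libraries with DMSO. In B6J cells with the inhibitor it was 6.92, 7.25 and 7.48, the same order as Sgce. With DMSO it was 6.12, 6.49 and 6.27, and the library highest in the markers was lowest in Sgce. The correlation of the list's mean with log2 Sgce over the 12 libraries was 0.36. For the other members it was -0.76 (Peg10), -0.82 (Calcr), -0.72 (Ppp1r9a), -0.56 (Casd1) and -0.48 (Asb4). The libraries share their groups, and these correlations are descriptions. Replicate 1 was also highest in summed primitive endoderm markers in both 129 groups, at 75.9 CPM with the inhibitor and 564 CPM with DMSO. With the fibroblast list's mean, less Col1a2, as a covariate, Sgce was called lower in both backgrounds. Its log2 fold change was then -1.08 in 129 cells (adjusted p = 0.00155) and -0.78 in B6J cells (adjusted p = 0.00585). Without either replicate 1 of the 129 cells, the value in 129 cells was 0.05 (adjusted p = 0.814). The covariate itself moves with the treatment, and what share of the Sgce reads came from which cells was not tested.

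**Figure D3:**
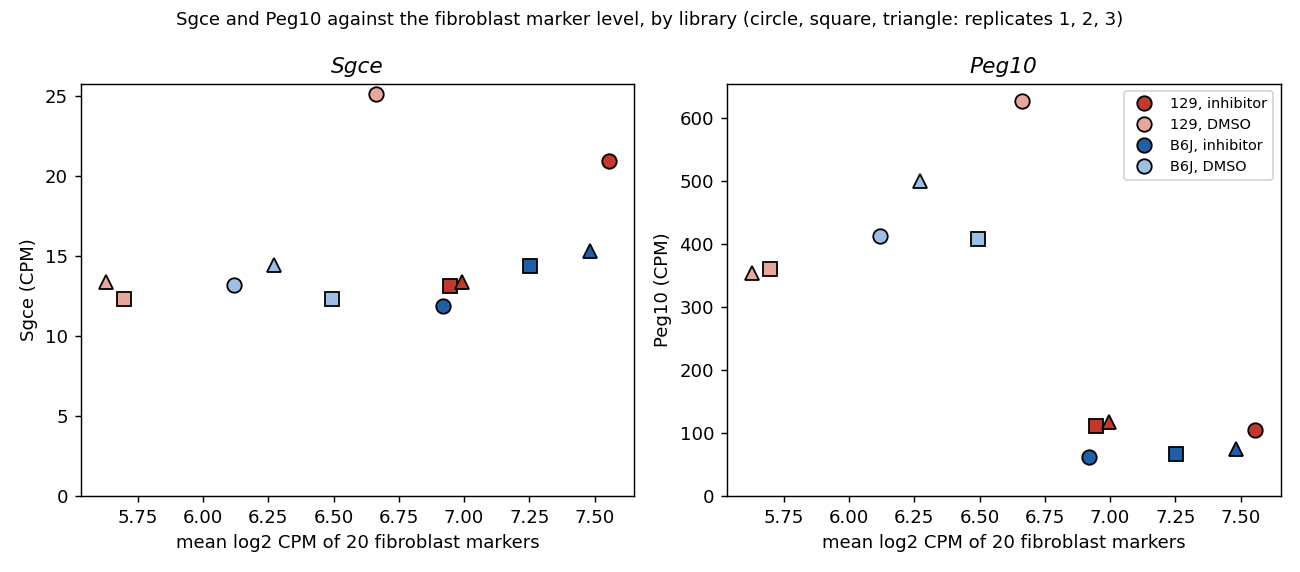
Sgce (left) and Peg10 (right) in CPM in each library, against the mean log2 CPM over 20 fibroblast markers; colours give the 4 groups and symbols the replicate number. In each 129 group replicate 1 is highest in both Sgce and fibroblast markers, while Peg10 separates inhibitor from DMSO libraries.

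Set as counts per kilobase of exon, Peg10 exceeded Sgce by factors of 8.005, 13.5 and 14.1 in the 129 libraries with the inhibitor, against 39.7, 46.7 and 42.0 in the 129 libraries with DMSO. In B6J cells the ratio was 8.35, 7.51 and 7.87 in the libraries with the inhibitor, against 49.8, 52.7 and 55.0 in the libraries with DMSO. Being a ratio within a library, it does not depend on the scaling between libraries. It was lower in every inhibitor library than in any DMSO library, so the pair did not keep 1 proportion across the treatments in these bulk samples. The ratio can depend on the mix of cells, and fibroblast markers were higher with the inhibitor in each background. Whether the proportion changed within ES cells was not tested. Over the 12 libraries the log2 levels of Peg10 and Sgce had a Pearson correlation of 0.16, and those of Peg10 and Calcr one of 0.94; the libraries share their groups, and these values are descriptions.

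**Figure D4:**
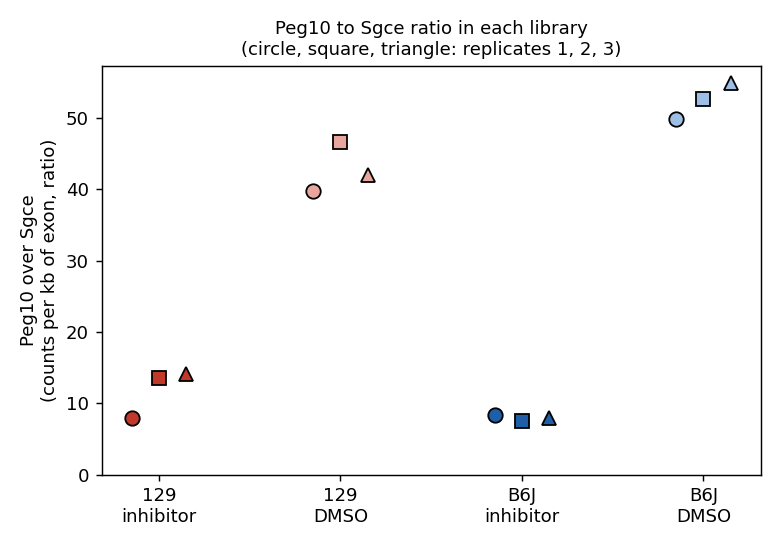
Ratio of Peg10 to Sgce, each as counts per kb of exon, in every library by group, on a linear axis that starts at 0; symbols give the replicate number. The inhibitor libraries lie between 7.51 and 14.1 and the DMSO libraries between 39.7 and 55.0.

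Calcr, Ppp1r9a and Asb4 are the members known for expression from the maternal copy. Their promoters are shown. The 3 genes had lower values with the inhibitor in both backgrounds, as did Casd1, which was called in neither. The control region of the domain lies at the start of Peg10 and Sgce and not in these windows, and methylation was not measured. The 250 bases before an annotated start are from RefSeq on GRCm38.p6, 5′ to 3′ on the gene's strand, with each CpG in capitals. Of the 6 genes, 4 were matched in the RefSeq promoter table, and Peg10 and Sgce were not. The windows of Casd1, which was matched, are not printed. The table gives 2 windows for each of Calcr, Ppp1r9a and Asb4, and 4 of these 6 are printed. They are both Calcr windows, chr6:3763624-3763873 and chr6:3764714-3764963 on the minus strand, and on the plus strand chr6:4903061-4903310 for Ppp1r9a and chr6:5383136-5383385 for Asb4. The other Ppp1r9a window, chr6:4902725-4902974, starts nearer the GENCODE start of the gene (58 bp from it, against 394 bp) but overlaps annotated exon by 58 bases, and the other Asb4 window, chr6:5390160-5390409, belongs to a start 7024 bp inside the gene.
Calcr, inner start: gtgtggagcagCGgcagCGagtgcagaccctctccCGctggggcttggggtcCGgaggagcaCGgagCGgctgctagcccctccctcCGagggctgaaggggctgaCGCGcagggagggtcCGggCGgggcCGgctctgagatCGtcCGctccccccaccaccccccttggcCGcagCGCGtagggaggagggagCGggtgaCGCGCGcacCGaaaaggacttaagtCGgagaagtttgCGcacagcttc
Calcr, outer start: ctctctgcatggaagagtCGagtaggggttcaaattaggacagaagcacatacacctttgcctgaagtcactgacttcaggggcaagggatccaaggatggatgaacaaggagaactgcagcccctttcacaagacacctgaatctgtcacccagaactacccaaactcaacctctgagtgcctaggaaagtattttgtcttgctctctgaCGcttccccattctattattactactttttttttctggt
Ppp1r9a: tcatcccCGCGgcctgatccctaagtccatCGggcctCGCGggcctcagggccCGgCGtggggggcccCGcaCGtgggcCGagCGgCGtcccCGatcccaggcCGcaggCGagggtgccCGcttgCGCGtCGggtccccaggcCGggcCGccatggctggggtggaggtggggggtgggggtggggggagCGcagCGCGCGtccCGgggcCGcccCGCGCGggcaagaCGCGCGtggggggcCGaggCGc
Asb4: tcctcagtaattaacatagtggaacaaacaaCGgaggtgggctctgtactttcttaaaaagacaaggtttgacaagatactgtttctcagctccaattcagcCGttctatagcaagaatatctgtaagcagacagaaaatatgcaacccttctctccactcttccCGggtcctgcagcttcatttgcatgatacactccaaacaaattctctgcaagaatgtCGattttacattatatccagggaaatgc
The 4 printed windows hold 24, 2, 35 and 4 CpGs, in that order, beside a median of 6 over 32851 promoter windows. For CpG number the printed Ppp1r9a window is at percentile 97.0 and the inner Calcr window at 88.0, whereas the other Ppp1r9a window, with 8 CpGs, is at percentile 57.0, as is the other Asb4 window, also with 8. The motif TGCCGC, searched on both strands and present in 8.68% of all windows, occurs once in the inner Calcr window and in none of the other 3. It also occurs once in the unprinted Casd1 window nearest the gene's start, which holds 17 CpGs. The motifs CCGGAAG and TGANTCA, searched likewise and present in 6.91% and 6.75% of all windows, occur in none of the 4 printed windows.

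Calcr encodes the calcitonin receptor, a G protein-coupled receptor, and lies at chr6:3685680-3764714 (ENSMUSG00000023964). It was the least abundant of the 6 genes per length in 3 of the 4 groups; in 129 cells with DMSO, Asb4 was. It had 0.276, 0.423 and 0.266 CPM in the 129 libraries with the inhibitor, against 1.59, 1.53 and 1.22 CPM in the 129 libraries with DMSO. It had 0.253, 0.292 and 0.357 CPM in the B6J libraries with the inhibitor, against 0.881, 1.11 and 0.971 CPM in the B6J libraries with DMSO. These values are from 20 to 34 reads per inhibitor library and 70 to 116 per DMSO library, and the treatments did not overlap in either background. Low values in the table were often even (70.1 to 73.4% of those from 1 to 20), and the Calcr counts were even in 11 of 12 libraries; with all counts halved no call among the 6 genes changed. The log2 fold change was -2.17 in 129 cells (SE 0.25, adjusted p = 6.6e-05) and -1.70 in B6J cells (SE 0.25, adjusted p = 0.000345), and was called lower in all 23 alternatives of each.

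Ppp1r9a encodes neurabin-1, an actin-binding scaffold of protein phosphatase 1, and lies at chr6:4902917-5165661 (ENSMUSG00000032827). It had 9.15, 15.7 and 12.9 CPM in the 129 libraries with the inhibitor, against 22.3, 31.6 and 26.3 CPM in the 129 libraries with DMSO. It had 29.1, 21.4 and 15.3 CPM in the B6J libraries with the inhibitor, against 27.6, 35.9 and 37.9 CPM in the B6J libraries with DMSO. The 129 groups did not overlap, whereas replicate 1 of B6J with the inhibitor lay above replicate 1 of B6J with DMSO. Ppp1r9a had a log2 fold change of -1.09 in 129 cells (SE 0.25, adjusted p = 0.0055) and -0.63 in B6J cells (SE 0.24, adjusted p = 0.0739). The call in 129 cells was lost with the fibroblast covariate (-0.40, adjusted p = 0.37), and the B6J value passed without replicate 1 of B6J with the inhibitor (-0.86, adjusted p = 0.0295).

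Asb4 encodes a protein with ankyrin repeats and a SOCS box, the kind of adaptor used by ubiquitin ligases, and lies at chr6:5383386-5433022 (ENSMUSG00000042607). It had 1.16, 0.664 and 0.654 CPM in the 129 libraries with the inhibitor, against 1.56, 1.15 and 1.40 CPM in the 129 libraries with DMSO. It had 1.14, 1.09 and 0.925 CPM in the B6J libraries with the inhibitor, against 1.40, 1.58 and 1.79 CPM in the B6J libraries with DMSO. The 129 groups overlapped at replicate 1 with the inhibitor, and the B6J groups did not overlap. Asb4 had a log2 fold change of -0.73 in 129 cells (SE 0.25, adjusted p = 0.0389) and -0.59 in B6J cells (SE 0.24, adjusted p = 0.0866). The call in 129 cells was lost in 9 of 23 alternatives, and the B6J value passed in 5 of 23.

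Casd1, an enzyme that adds O-acetyl groups to sialic acids, lies at chr6:4600839-4643355 on the plus strand (ENSMUSG00000015189). It averaged 12.8 ± 1.06 CPM in 129 and 11.7 ± 1.02 CPM in B6J cells with the inhibitor, against 13.7 ± 1.17 CPM in 129 and 14.4 ± 2.10 CPM in B6J cells with DMSO (SD, n = 3 each). With the inhibitor its log2 fold change was -0.10 in 129 cells (95% interval -0.38 to 0.18, adjusted p = 0.559) and -0.30 in B6J cells (95% interval -0.58 to -0.02, adjusted p = 0.0941). Its libraries with the inhibitor overlapped those with DMSO in both backgrounds. By separation of the groups, 3 of the 6 genes lay wholly lower with the inhibitor in 129 cells (Peg10, Calcr and Ppp1r9a), as did 24.4% of all tested genes. In B6J cells 3 did (Peg10, Calcr and Asb4), as did 25.7% of all tested genes.

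Between B6J and 129 cells with DMSO, 0 of the 6 genes were called, with 1 at an unadjusted p under 0.05, where 20.9% of all tested genes were called. Peg10 had a log2 difference, B6J over 129, of -0.02 (95% interval -0.43 to 0.39, adjusted p = 0.954). Calcr was lower in every B6J library with DMSO than in any 129 library with DMSO, with a log2 difference of -0.55 (SE 0.23, adjusted p = 0.12); by separation 17.9% of all tested genes were lower. Without replicate 1 of both 129 groups, Peg10 was called higher in B6J cells with DMSO (0.30, adjusted p = 0.0489).

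With the inhibitor, Peg10 was called lower in B6J than in 129 cells and Ppp1r9a higher, where 9.47% and 8.9% of all tested genes were called lower and higher. The log2 difference of Peg10 was -0.70 (SE 0.19, adjusted p = 0.0228), with all 3 B6J libraries below all 3 of 129, as in 19.6% of all tested genes. That of Ppp1r9a was 0.80 (SE 0.25, adjusted p = 0.0426), from 21.9 ± 6.91 CPM in B6J cells and 12.6 ± 3.27 CPM in 129 cells (SD, n = 3 each). The Peg10 call was lost in 5 of 23 alternatives and the Ppp1r9a call in 11 of 23.

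Other genes of the same stretch were called in both directions, and the counts do not show which of them are imprinted. Of 15 further annotated neighbours from Vps50 to Dlx5, 12 had enough counts to be tested. In 129 cells 6 of them were called higher and 1 lower with the inhibitor, beside 17.4% and 18.2% of all tested genes. In B6J cells 3 were called higher and 1 lower, beside 14.6% and 16.5% of all tested genes. The gene called lower in both was Tfpi2, a secreted inhibitor of serine proteases. It averaged 0.198 ± 0.0947 CPM in 129 and 0.301 ± 0.114 CPM in B6J cells with the inhibitor, against 1.77 ± 0.354 CPM in 129 and 2.77 ± 0.629 CPM in B6J cells with DMSO (SD, n = 3 each). The log2 fold change was -3.15 in 129 cells (SE 0.38, adjusted p = 8.85e-05) and -3.19 in B6J cells (SE 0.36, adjusted p = 5.8e-05).

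The neighbours called higher in both backgrounds were Dlx5, Pon3 and Slc25a13. Dlx5, a homeobox gene, had log2 fold changes of 3.40 in 129 cells and 1.93 in B6J cells (adjusted p = 8.12e-05 and 0.00206), at mean levels up to 2.09 CPM. Pon3, a paraoxonase, had 1.12 and 1.26 (adjusted p = 0.00418 and 0.0023), and Slc25a13, a mitochondrial aspartate-glutamate carrier, had 0.60 and 0.34 (adjusted p = 0.00039 and 0.014). Called higher in 129 cells were also Col1a2, a collagen chain and fibroblast marker, with 1.0 (adjusted p = 0.0128), Pdk4, a kinase of pyruvate dehydrogenase, with 0.70 (adjusted p = 0.00204), and Dync1i1, a dynein chain, with 0.99 (adjusted p = 0.0304). Their values in B6J cells were 0.72, 0.05 and 0.09, and none of the 12 differed between the backgrounds in response by the test. Vps50, Gng11, Bet1, Pon2 and Sem1 were called in neither background. Gngt1 had 0 counts in all 12 libraries, which allows up to 3 counts over them, and Pon1 and Dlx6 had too few counts to be tested.

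**Figure D5:**
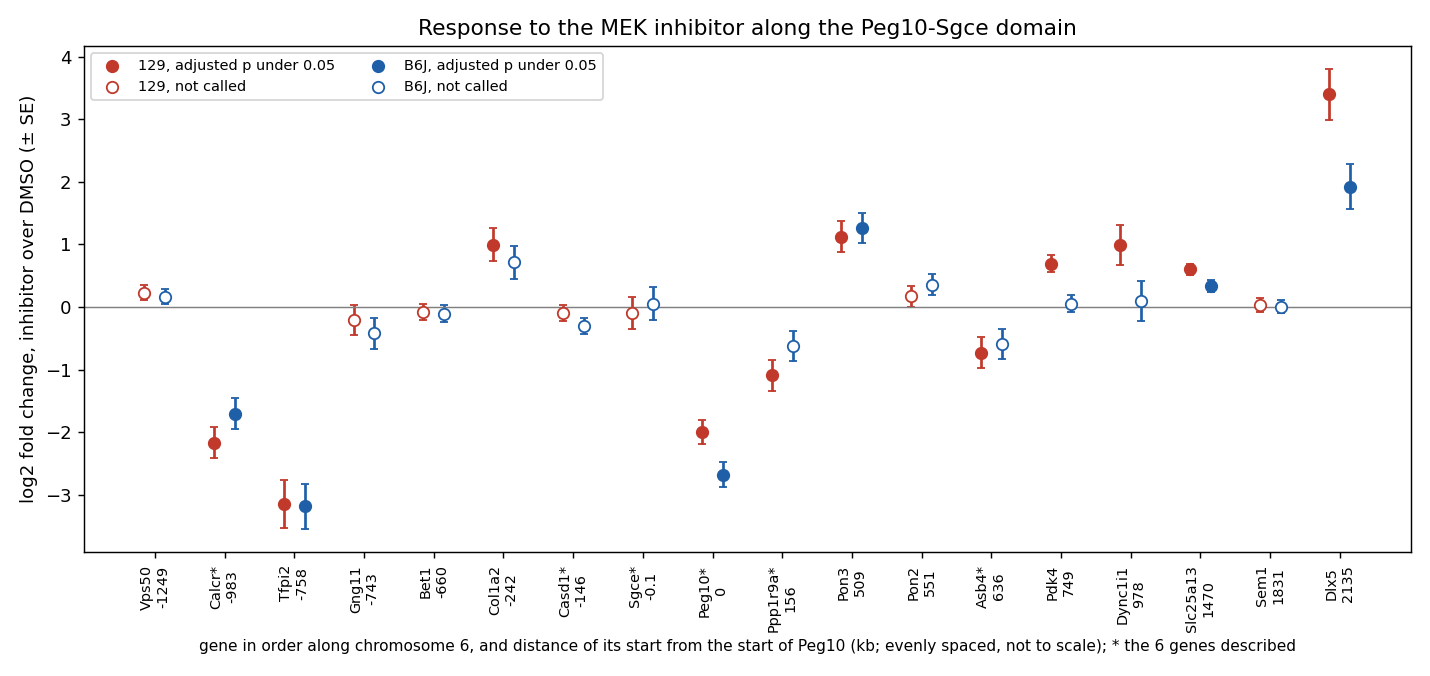
Log2 fold change, inhibitor over DMSO (± SE), of the 18 tested genes of the stretch in chromosome order, evenly spaced, 129 (red) beside B6J (blue); filled points have an adjusted p under 0.05, labels give the distance from the Peg10 start in kb, and asterisks mark the 6 genes described. The lowest values are those of Tfpi2, Peg10 and Calcr, with Ppp1r9a and Asb4 less far below 0 and Sgce and Casd1 near it.

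Peg10 belongs to a group of genes derived from sushi-ichi retrotransposons, of which 10 relatives were listed and 8 tested. In 129 cells 1 was called higher and 2 lower, where 17.4% of all tested genes were called higher and 18.2% lower. In B6J cells 2 were called higher and 1 lower, where 14.6% of all tested genes were called higher and 16.5% lower. Rtl3 was higher in both backgrounds (log2 fold change 3.34 and 2.58 in 129 and B6J cells, adjusted p = 6.41e-06 and 2.65e-05). Rtl8c and Rtl8b were lower in 129 cells (-1.30 and -0.76, adjusted p = 0.0031 and 0.00303). The list's median was 0.01 in 129 cells and -0.01 in B6J cells. Reads of the near-identical Rtl8 copies may be split between them, and their counts are uncertain.

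Of 14 other listed genes of the sarcoglycan and dystrophin complex, which links the cytoskeleton to the matrix, 13 were tested. In 129 cells 5 were called higher and 2 lower, beside 17.4% and 18.2% of all tested genes. In B6J cells 3 were called higher and 1 lower, beside 14.6% and 16.5% of all tested genes. Sspn had log2 fold changes of 1.5 and 1.33 in 129 and B6J cells (adjusted p = 0.00109 and 0.00245), Sgcb 0.72 and 0.73 (adjusted p = 0.00141 and 0.00137), and Dtna -0.54 and -1.08 (adjusted p = 0.0175 and 0.000291). The largest called change was that of Sgcz in 129 cells, 3.83 (adjusted p = 0.00132), at mean levels up to 0.434 CPM. The list's median was 0.46 in 129 and 0.16 in B6J cells. The fibroblast markers moved the same way, with 14 of 20 called higher in 129 cells and 11 in B6J cells and 0 lower, and their part in these changes was not tested.

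Imprinted genes of other domains were called in both directions. Of all tested genes, 17.4% were called higher and 18.2% lower in 129 cells, and 14.6% and 16.5% in B6J cells. Of 22 tested genes known for paternal expression, 4 were called higher and 11 lower in 129 cells, and 4 higher and 10 lower in B6J cells, with medians of -0.40 and -0.37. Magel2 had log2 fold changes of -3.43 and -2.56 in 129 and B6J cells (adjusted p = 4.66e-07 and 2.55e-06), whereas Dio3 had 2.95 and 3.51 (adjusted p = 1.88e-07 and 1.24e-07). Of 20 tested genes known for maternal expression, 2 were called higher and 5 lower in 129 cells, and 3 higher and 5 lower in B6J cells, with medians of -0.20 and -0.10. Phlda2, a brake on placental growth, had -1.63 and -1.89 (adjusted p = 2.17e-05 and 8.37e-06), and Cdkn1c, a cell cycle inhibitor, had -1.02 and -1.21 (adjusted p = 0.000241 and 8e-05). The largest called change of that list was that of Slc22a3, -3.40 and -2.74 (adjusted p = 0.00106 and 0.00208), at mean levels up to 0.637 CPM. Cd81 was called higher in both, with 0.77 and 0.60 (adjusted p = 0.00103 and 0.00524).

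Among 14 genes that protect imprints or add or remove DNA methylation, 6 were called higher and 3 lower in 129 cells. In B6J cells 4 were called higher and 6 lower. Of all tested genes, 17.4% were called higher and 18.2% lower in 129 cells, and 14.6% and 16.5% in B6J cells. Zfp57, the zinc finger protein that keeps imprints methylated, averaged 344 ± 33.5 CPM in 129 and 373 ± 9.49 CPM in B6J cells with the inhibitor, against 173 ± 19.6 CPM in 129 and 184 ± 11.4 CPM in B6J cells with DMSO (SD, n = 3 each). Its log2 fold change was 0.99 in 129 cells (adjusted p = 1.65e-05) and 1.02 in B6J cells (adjusted p = 1.44e-05). Dnmt3b, which adds methylation to unmethylated DNA, fell by 1.38 on the log2 scale in 129 cells and by 1.35 in B6J cells (adjusted p = 2.34e-06 and 3.44e-06). The responses of Setdb1 and Dppa3 differed between the backgrounds (log2 difference, B6J minus 129, of -0.80 and -1.10, adjusted p = 0.00264 and 0.0187).

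The genes whose levels over the 12 libraries were most like those of Peg10, of 11086 compared, were Krt8, Rassf3 and Bhlhe40, with Pearson correlations of 0.995, 0.991 and 0.986 in log2 CPM. The libraries share their groups, so any gene with a similar step between the treatments ranks high, and these correlations are descriptions. Krt8, a simple-epithelium keratin, averaged 23.8 ± 3.34 CPM in 129 and 12.3 ± 0.932 CPM in B6J cells with the inhibitor, against 233 ± 150 CPM in 129 and 220 ± 35.5 CPM in B6J cells with DMSO (SD, n = 3 each). Krt8 is also a trophoblast marker, and the trophoblast is a tissue in which Peg10 is abundant. Of the 10 trophoblast markers 7 were tested. In 129 cells 2 were called higher and 5 lower, beside 17.4% and 18.2% of all tested genes. In B6J cells 1 was called higher and 5 lower, beside 14.6% and 16.5% of all tested genes. The summed level of the 10 markers was 106 to 116 CPM in 129 and 112 to 117 CPM in B6J cells with the inhibitor. With DMSO it was 276 to 755 CPM in 129 and 412 to 538 CPM in B6J cells. Krt8 and Krt18 carried most of that sum with DMSO, but not with the inhibitor. Without them the group means of the other 8 markers summed to 68.3 CPM in 129 and 87.9 CPM in B6J cells with the inhibitor. With DMSO the sum without them was 50.8 CPM in 129 and 93.6 CPM in B6J cells. Most of that was Tfap2c, at 62.9 and 81.9 CPM in 129 and B6J cells with the inhibitor, against 44.4 and 77.8 CPM with DMSO. Cdx2, Hand1 and Krt7 were called lower in both backgrounds, as were Krt8 and Krt18. Cdx2 had log2 fold changes of -3.07 and -2.34 in 129 and B6J cells, Hand1 -1.34 and -1.52, and Krt7 -0.74 and -2.12. Group means of these 3 genes reached 2.21, 1.11 and 11.8 CPM. The transcription factor Gata3 was called higher with the inhibitor in both backgrounds (log2 fold change 2.28 and 0.60 in 129 and B6J cells, adjusted p = 1.26e-05 and 0.0357), and Tfap2c in 129 cells (0.50, adjusted p = 0.00108). The placental marker Tpbpa was at 0 in every library, and the markers' part in the Peg10 result was not tested. For Sgce the genes most alike were Reep5, Sdcbp and Surf4, with correlations of 0.960, 0.955 and 0.955.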

How the data were processed

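RNA from 12 libraries, 4 groups of 3, was analysed from 1 deposited table of raw, whole-number counts for each gene, to which the authors applied no scaling. Tools listed in the submitters' processing notes are HTSeq 0.6.1p1, STAR 2.7.10, DESeq and SAMtools, with GRCm38 and mm10 as builds. Which annotation and strand setting served for counting, and how multiply aligned reads were handled, is not given in the sources used here. The library kit was stranded, per the labels' protocols. Symbols, positions and exon lengths were read from GENCODE M21 (GRCm38), which holds 26725 of the 26742 identifiers; no annotated exon of the 6 genes overlaps an exon of another gene on either strand.

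Genes were kept by edgeR's filterByExpr with a minimum count of 10 and a minimum total of 15, leaving 16627. One quasi-likelihood model of 4 group means was fitted to all 12 libraries with TMM scaling (edgeR 4.0.16, R 4.3.3, limma 3.58.1), with p-values adjusted by Benjamini-Hochberg over all tested genes and called under 0.05. CPM values are TMM-adjusted, and levels per length are CPM per kilobase of annotated exon. The standard error is the fold change divided by the root of F, and intervals are 95%. The test was tried on simulated counts with 200 changed genes. Reads carry no molecular identifiers, so the limit of 3 counts for a count of 0 covers counting error only.

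Alternatives were DESeq2 1.42.0, limma-voom, other scaling, other filters, the compared groups alone, each library left out, the libraries that stand apart left out, halved counts, a fibroblast covariate and a replicate block. Libraries of the same number deviated together in 129 cells (inhibitor and DMSO, correlations of 0.442, 0.295 and 0.222). Replicates 2 and 3 did so across numbers as well (0.194 and 0.209), so the values set apart only replicate 1 of both 129 groups. Whether the numbers pair the libraries is not given in the labels. The block changed no call of the 6 genes in 129 cells. All 6 genes are named; likeness was ranked by Pearson correlation of log2 CPM with a prior count of 2. The 6 genes and all gene lists were chosen with earlier results of these data known.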

Additional observations from a re-analysis of the deposited data

How the results depend on the processing

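The calls of Peg10 and Calcr in both backgrounds held in all 23 alternatives, and the count of genes called in 129 cells stayed within 1.5 times. In B6J cells, 2 were called as reported, 4 without replicate 1 of both 129 groups, 4 with the fibroblast covariate and 5 without the 4 libraries that stand apart; over all genes these settings gave 7012, 4963 and 7583 calls, against 5166 as reported. The difference of the responses went from 0 calls to 1 (Peg10) without replicate 1 of both 129 groups (-1.04, adjusted p = 0.00371) and without the 4 libraries (-1.18, adjusted p = 0.000232), where calls over all genes were 608 and 2059 against 246 as reported, and to between 0 and 1 when single libraries were left out. Between backgrounds with DMSO, 0 were called as reported and 1 without replicate 1 of both 129 groups (Peg10, 0.30), without the 4 libraries (Peg10, 0.34) and with the covariate (Sgce, -0.52); over all genes these gave 4878, 6493 and 4984 calls, against 3468. Between backgrounds with the inhibitor, 2 were called as reported, 1 by limma-voom, 1 with the compared groups alone, and 0 to 2 when single libraries were left out.

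With the replicate block, 0 genes were called between backgrounds with the inhibitor (Peg10 -0.70, adjusted p = 0.0513; Ppp1r9a 0.78, adjusted p = 0.104), with 1790 calls over all genes against 3053, and Peg10 had 0.027 between backgrounds with DMSO. Those libraries, and the B6J treatments, share only a number (B6J deviations correlated at -0.188, 0.0883 and -0.17). The block changed no other call.

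The values that changed sign were not called as reported; under the alternatives 3 of them were called, Sgce in B6J cells with the covariate and Peg10 between backgrounds with DMSO without replicate 1 of both 129 groups or without the 4 libraries. Sgce in 129 cells was 0.046 without replicate 1 of both 129 groups, 0.048 without the 4 libraries, and -0.34 to 0.30 when single libraries were left out. Sgce in B6J cells was -0.037 without the 4 libraries, -0.78 with the covariate and -0.013 to 0.18 without single libraries. The Sgce difference of responses was -0.085 without the 4 libraries and -0.24 to 0.42 without single ones. Between backgrounds with DMSO, Sgce was 0.054 without replicate 1 of both 129 groups, 0.058 without the 4 libraries and -0.53 to 0.055 without single ones. There Peg10 was 0.023 by limma-voom and -0.16 to 0.30 without single libraries, and Casd1 was -0.028 to 0.18. Between backgrounds with the inhibitor, Sgce was 0.065 without replicate 1 of both 129 groups and -0.31 to 0.058 without single libraries, and Calcr -0.24 to 0.15. The cause of these changes was not tested. Depth limits Calcr and Asb4, which had 20 to 133 reads per library.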
